A study of Mus musculus with 6 samples.

Results

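Macrophages take up dying cells and debris, sample antigens and renew themselves under the growth factor receptor CSF1R. They carry Fc receptors for antibody, make the 3 chains of complement C1q, and digest what they engulf with lysosomal proteases and an oxidase that makes superoxide. In the olfactory epithelium, where sensory neurons die and are replaced throughout life, they clear neuronal remains. The 38 genes described here are a set of such macrophage genes, chosen by symbol. A probe set counted as a member when the platform table gave it 1 of these symbols alone, which held for 69 probe sets and 37 genes of the 45101 probe sets on the array. Lilrb4a was listed only on a probe set shared with Lilr4b and has no value of its own here. Of the 37 genes, 36 had a probe set past a filter on low signal (3 or more of the 6 arrays brighter than 16), out of 16399 genes in all, and Cd163 had none.

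Cells sorted with an antibody to ICAM1 (CD54), an adhesion protein of basal, endothelial and immune cells, were compared as ICAM1-positive and ICAM1-negative populations from the olfactory epithelium of CD1 mice, an outbred and otherwise unmodified strain. There were 3 ICAM1-positive and 3 ICAM1-negative arrays. Each litter of mice, aged 21, 22 or 24 postnatal days, gave 1 sort of each kind, so litter and age cannot be told apart, and an array stands for the sorted cells of a litter rather than of 1 animal. RNA was amplified in 2 rounds before hybridisation. The gate selects every cell that carries ICAM1, and the labels name no other marker, so either sort may hold several cell types.

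The labels were checked first. Icam1 had an intensity of 7246.5, 6817.2 and 6857.1 in the ICAM1-positive arrays and 13, 16.1 and 33.2 in the ICAM1-negative arrays, at least a 72.2-fold difference, which follows the sample titles and goes against the free-text sample descriptions. As a check of the tissue, all 8 listed olfactory sensory neuron genes were lower and all 6 listed horizontal basal cell genes were higher in the ICAM1-positive sort. Of these 6, Krt15 passed the filter only through the ICAM1-positive arrays, so it could appear only as higher. Median intensity per array lay between 87.9 and 102.8. Arrays correlated at 0.934 to 0.944 within a sort and 0.762 to 0.794 between sorts.

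In what follows, intensities are the deposited linear values, given for litters 1, 2 and 3 in that order. Each gene is represented by its brightest probe set over the 6 arrays. The log2 difference is ICAM1-positive minus ICAM1-negative, paired by litter and fitted with limma, and its error is the standard error of that fit. A gene passed at a Benjamini-Hochberg adjusted p under 0.05 over all 38694 probe sets tested. The files hold no detection calls. Where all 3 arrays of the dimmer sort lay below their array's median, that median stands in for the dim value, and the fold is written as at least that size, without an error.

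Most of the macrophage genes were higher in the ICAM1-positive sort. Of 36 genes, 29 rose, 1 fell and 6 did not pass, with log2 differences from -0.61 to 7.28 and a median of 3.03. The background is wide: of all genes tested, 21.3% rose and 22.2% fell, with a median of -0.06. Of the 36, 17 rose with a log2 difference of 3 or more, against 5.23% of all genes. In 32 of 36 genes every ICAM1-positive array was brighter than every ICAM1-negative array, against 27.8% of all genes, and in 0 the reverse held, against 30.1%. C1qa and C1qc passed the filter only through the ICAM1-positive arrays, as did 6 member probe sets in all, among them 2 of C1qb and 2 of Msr1. C1qa and C1qc are counted among the 29, the 17 and the 32. The largest fitted difference, 7.28, is that of C1qc, whose bound is at least 5.21-fold. The 17 were counted by fitted differences. Some of them have bounds below that size, such as Aif1 (at least 1.46-fold) and Mrc1 (at least 4.13-fold). With no filter, 29 of 37 genes rose and 0 fell, against 17% and 17.1% of all genes. In direction alone, 35 of the 36 fitted differences were positive. In bulk sorts a larger share of macrophages and more RNA of these genes per cell cannot be told apart.

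**Figure D1:**
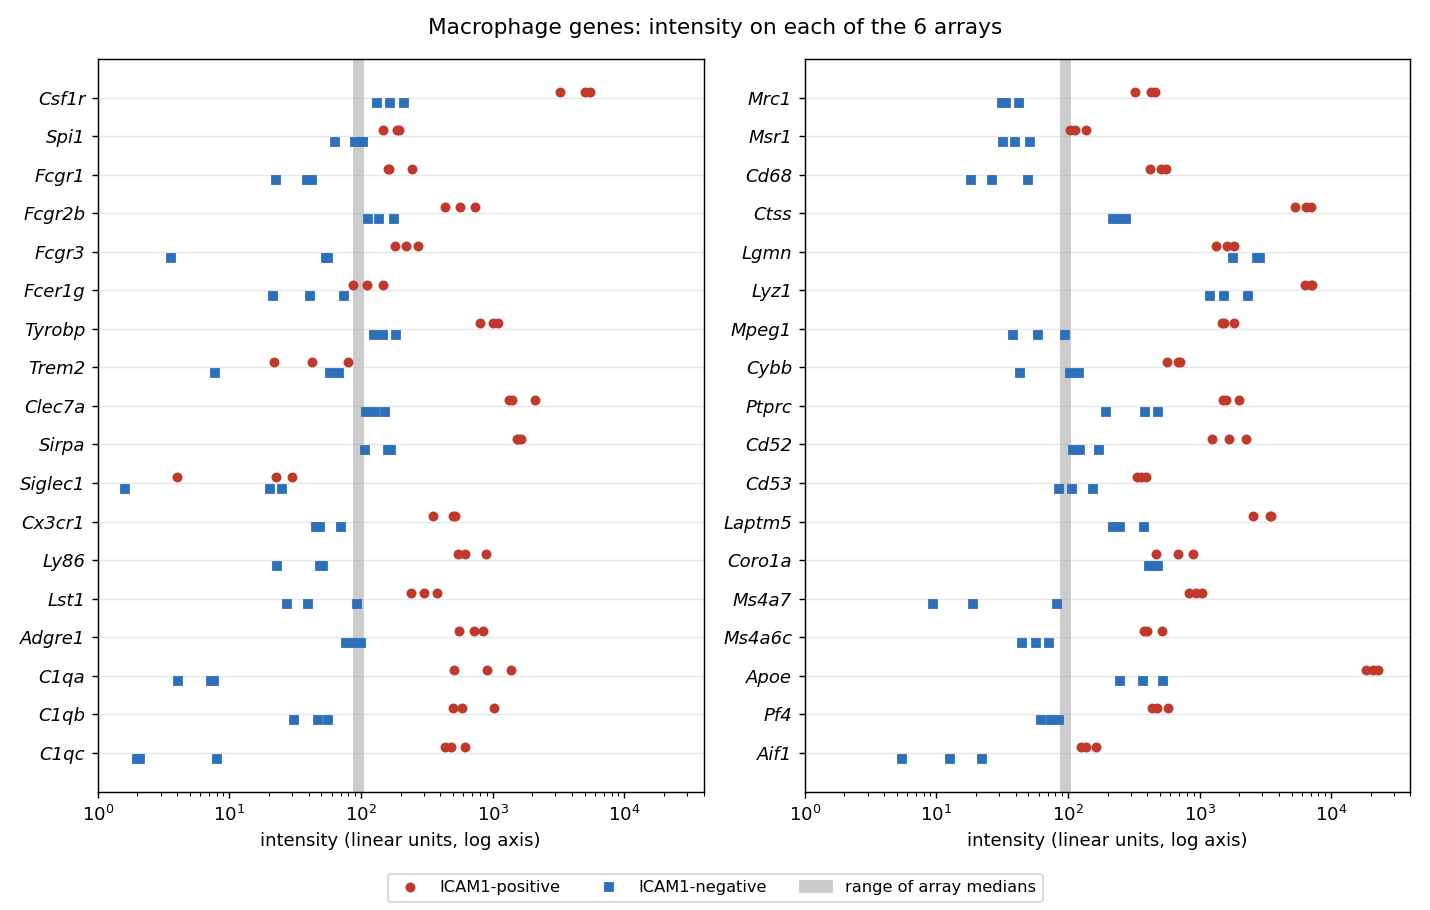
Intensity (log axis) of 36 macrophage genes on each array, with 3 ICAM1-positive arrays as circles and 3 ICAM1-negative arrays as squares per gene; the grey band spans the array medians, 87.9 to 102.8. The circles lie to the right of the squares without overlap in 32 genes, and Trem2, Siglec1, Lgmn and Coro1a overlap.

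The 3 litters gave similar differences, as the plot of differences by litter shows. The median over the 36 genes was 2.93 in litter 1, 2.86 in litter 2 and 3.37 in litter 3. Litter 3 was the brightest of the 3 ICAM1-positive arrays for 24 of the 36 genes, against 34.7% of all genes, litter 2 for 9 (34.9% of all genes) and litter 1 for 3 (30.4%). Relative to each gene's mean over the ICAM1-positive arrays, the macrophage genes had a median log2 deviation of -0.12 in litter 1, -0.05 in litter 2 and 0.19 in litter 3, while over all genes these medians lay between -0.01 and 0.03. The same deviations over the ICAM1-negative arrays were -0.22, 0.33 and 0.02, and over all genes between 0.00 and 0.03. Leaving out a litter kept the median difference between 2.86 and 3.21. The count of genes that rose was 19 without litter 1, 25 without litter 2 and 24 without litter 3, and all probe sets called, in either direction, fell with it to 4867, 5596 and 6123, against 14375 with every litter. Of the 29 genes, 17 rose in each of these smaller fits and 12 lost the call in at least 1.

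**Figure D2:**
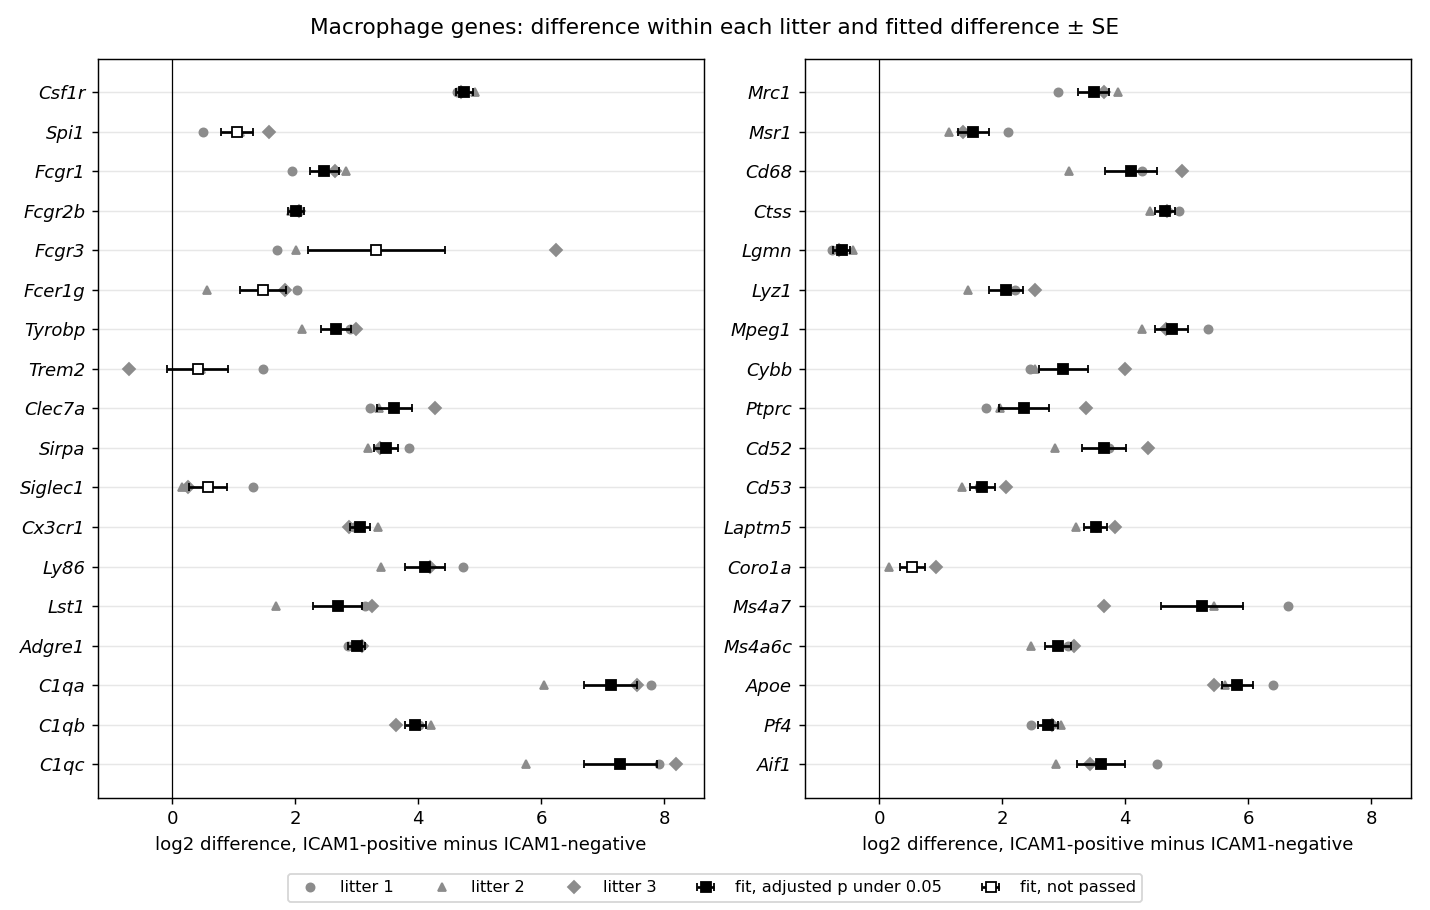
Log2 difference (ICAM1-positive minus ICAM1-negative) of 36 macrophage genes within each litter (grey) and as fitted with its SE (squares, filled where the adjusted p was under 0.05). Fitted differences are positive in every gene but Lgmn, and the litters spread most in Fcgr3 and Ms4a7.

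Csf1r and Spi1 stand at the head of the lineage. Csf1r encodes the receptor for the growth factors CSF1 and IL34, on which most macrophages depend. It measured 3260.9, 5046.2 and 5440.6 in the ICAM1-positive arrays, against 131.8, 165.8 and 210.3 in the ICAM1-negative arrays, a log2 difference of 4.75 ± 0.14 (adjusted p = 0.00406). The dimmest ICAM1-positive array was far above the brightest ICAM1-negative array. The other Csf1r probe sets rose as well, by 4.45 ± 0.51 (at least 12.6-fold) and 1.86 ± 0.26. Spi1 encodes PU.1, the ETS transcription factor of myeloid and B cells. Its intensity was 146, 193.5 and 188.4 in the ICAM1-positive arrays and 102.8, 90.4 and 63.4 in the ICAM1-negative arrays, and it did not pass (1.06 ± 0.26, adjusted p = 0.0543). The sorts did not overlap for Spi1, and without the pairing by litter it passed (adjusted p = 0.0213), as it did under 7 other settings.

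PU.1 binds purine-rich DNA around the letters GGAA. RefSeq promoter windows of build GRCm38.p6, from 250 bases before to 50 after a gene's start, were held for 27 of the 38 genes, as 35 windows. The letters GAGGAAGT, on either strand, were in 4 windows of the macrophage genes (11.4%) and in 3.2% of all 32851 windows. The shorter AGGAAGT was in 11 windows (31.4%, against 9.35% of all), GAGGAA in 20 (57.1%, against 28.3%) and GGAAGT in 15 (42.9%, against 23.8%). These 4 strings overlap each other, and a match is a run of letters, not a measured binding site. The 4 windows with the longest string, those of C1qc, Cd53, Ctss and Pf4, are shown. These 4 genes rose, as did 29 of the 36 macrophage genes, and a link between the string and the rise was not tested. Capitals mark the string, which is read here on the opposite strand, so it appears as ACTTCCTC.
C1qc, chr4:136892865-136893164, minus strand: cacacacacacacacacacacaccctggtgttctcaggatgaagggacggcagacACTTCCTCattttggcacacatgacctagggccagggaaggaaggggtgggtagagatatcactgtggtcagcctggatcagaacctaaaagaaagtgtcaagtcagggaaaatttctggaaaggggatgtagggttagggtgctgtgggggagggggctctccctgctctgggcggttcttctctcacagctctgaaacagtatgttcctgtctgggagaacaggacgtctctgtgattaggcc
Cd53, chr3:106790100-106790399, minus strand: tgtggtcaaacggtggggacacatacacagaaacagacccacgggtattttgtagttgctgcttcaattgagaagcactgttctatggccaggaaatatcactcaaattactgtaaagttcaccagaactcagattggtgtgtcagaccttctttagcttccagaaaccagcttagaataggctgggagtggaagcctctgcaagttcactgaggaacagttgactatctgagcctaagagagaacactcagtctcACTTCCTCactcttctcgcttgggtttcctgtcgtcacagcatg
Ctss, chr3:95526536-95526835, plus strand: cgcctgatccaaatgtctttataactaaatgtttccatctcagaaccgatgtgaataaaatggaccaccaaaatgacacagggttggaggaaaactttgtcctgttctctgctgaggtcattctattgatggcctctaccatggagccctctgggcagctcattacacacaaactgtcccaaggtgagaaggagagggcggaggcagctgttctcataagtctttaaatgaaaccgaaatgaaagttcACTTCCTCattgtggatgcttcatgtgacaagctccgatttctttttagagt
Pf4, chr5:90772185-90772484, plus strand: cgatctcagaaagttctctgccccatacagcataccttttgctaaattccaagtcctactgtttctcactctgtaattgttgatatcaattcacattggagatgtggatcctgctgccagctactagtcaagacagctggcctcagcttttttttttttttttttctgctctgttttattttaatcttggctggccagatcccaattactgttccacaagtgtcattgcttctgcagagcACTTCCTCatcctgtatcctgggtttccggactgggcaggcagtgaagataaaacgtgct
In Ctss, Pf4 and Cd53 the string lies near the annotated start, between positions -10 and 13, and in C1qc it lies further upstream, beginning at position -195.

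All 3 chains of complement C1q were brighter in the ICAM1-positive sort. C1q is the recognition part of the classical complement pathway, built from A, B and C chains, and macrophages are its main source. C1qa measured 900.8, 505.5 and 1375 in the ICAM1-positive arrays and 4.1, 7.7 and 7.3 in the ICAM1-negative arrays (at least 8.86-fold). C1qc measured 480, 433.1 and 612.6 in the ICAM1-positive arrays and 2, 8 and 2.1 in the ICAM1-negative arrays (at least 5.21-fold). All ICAM1-negative arrays lay far below the array median for these genes, so the log2 differences have no exact size. C1qa and C1qc passed the filter only through the ICAM1-positive arrays, so they are given in this paragraph by their bounds alone. C1qb, by its brightest probe set, measured 501.1, 1032.4 and 586.7 in ICAM1-positive and 31.1, 55.7 and 47 in ICAM1-negative arrays (3.95 ± 0.18, adjusted p = 0.00406, at least 6.96-fold). Its other 2 probe sets passed the filter only through the ICAM1-positive arrays, and are given by their bounds alone, at least 6.32-fold and 6.91-fold. By its brightest probe set, C1qb kept its call without any 1 litter.

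Among the Fc receptors and the adaptors that signal for them, some genes rose and others stayed short of the threshold. Fcgr2b, the inhibitory receptor for IgG, measured 569, 432.2 and 734.2 in ICAM1-positive arrays and 136.1, 113.2 and 176.5 in ICAM1-negative arrays (2.02 ± 0.13, adjusted p = 0.00455). The difference was nearly the same in each litter (2.06, 1.93 and 2.06). Fcgr1, the high-affinity receptor for IgG, measured 164.1, 160.9 and 243.4 in ICAM1-positive arrays against 42.4, 22.7 and 39 in ICAM1-negative arrays (2.47 ± 0.24, adjusted p = 0.00806, at least 1.93-fold). Fcgr1 lost the call without litter 2 (adjusted p = 0.0503) or litter 3 (0.0537), and its second probe set showed no difference past the threshold (0.04 ± 0.41).

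Tyrobp, which encodes the adaptor DAP12, measured 1101.1, 799.9 and 999.8 in ICAM1-positive arrays against 147.9, 184.7 and 125.4 in ICAM1-negative arrays (2.67 ± 0.24, adjusted p = 0.00751; 0.0536 without litter 1). Fcer1g, the common gamma chain of activating Fc receptors, had 87.3, 110.6 and 147 in ICAM1-positive arrays and 21.4, 74.6 and 41.2 in ICAM1-negative arrays (1.48 ± 0.37, at least 1.16-fold, adjusted p = 0.0544). The lowest ICAM1-positive array was still above the highest ICAM1-negative one, and Fcer1g passed without litter 2 (adjusted p = 0.0426) and under 6 of the other settings tried (0.0138 to 0.0455). Fcgr3, a low-affinity activating receptor, had 182.7, 220.8 and 272.5 in ICAM1-positive arrays and 56, 54.6 and 3.6 in ICAM1-negative arrays (3.32 ± 1.12, at least 2.30-fold, adjusted p = 0.101). The single value of 3.6 made the litters unequal, and without litter 3 the difference was 1.86 and passed (adjusted p = 0.0433), as it did with a pseudocount of 16 (0.0251) and an intensity trend (0.00867). Trem2, a lipid-sensing receptor that signals through DAP12, lay below the array median on all 6 arrays, at 21.8, 80.2 and 42.1 in ICAM1-positive and 7.8, 57.8 and 68.4 in ICAM1-negative cells, and its sorts overlapped.

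The other surface receptors rose except Siglec1. Clec7a, the receptor for fungal beta-glucans, measured 1396, 1322.2 and 2100.7 in ICAM1-positive arrays against 151, 128.3 and 109.2 in ICAM1-negative arrays (3.61 ± 0.28, adjusted p = 0.00585). Sirpa, the receptor for the "don't eat me" protein CD47, measured 1558, 1521.9 and 1654.1 in ICAM1-positive arrays against 107.6, 167.5 and 159 in ICAM1-negative arrays (3.47 ± 0.19, adjusted p = 0.0042). Sirpa is also made by neurons and other cells, and its other probe sets rose by 1.72 ± 0.17 (at least 1.42-fold) and 1.59 ± 0.29. Adgre1, which encodes the F4/80 antigen used to identify mouse macrophages, measured 552.7, 716.3 and 849.6 in ICAM1-positive arrays against 76.2, 87 and 99.8 in ICAM1-negative arrays (3.0 ± 0.13, adjusted p = 0.00406).

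Cx3cr1, the fractalkine receptor, measured 350.3, 498.6 and 513.9 in ICAM1-positive arrays against 45.4, 48.9 and 70.2 in ICAM1-negative arrays (3.06 ± 0.17, at least 4.64-fold, adjusted p = 0.00417). Ly86, the MD-1 partner of the receptor RP105, measured 613.9, 542.4 and 888.7 in ICAM1-positive arrays against 23.1, 51.4 and 48.5 in ICAM1-negative arrays (4.11 ± 0.32, at least 6.9-fold, adjusted p = 0.0059). Lst1, a leukocyte transcript of the MHC region, rose by 2.69 ± 0.40 (at least 3.11-fold, adjusted p = 0.0184), but missed the threshold without litter 1 (0.0913) or litter 3 (0.0847). Siglec1, the sialic acid receptor CD169 of tissue macrophages, was below the array median on all 6 arrays in the probe set tested (0.58 ± 0.31, adjusted p = 0.229). For Siglec1 neither sort gave a level that could be told from the other.

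Of the scavenger and mannose receptors, all 3 genes tested rose. Cd68, a lysosomal membrane protein of phagocytes, measured 507, 421.5 and 555.1 in ICAM1-positive arrays against 26.3, 49.4 and 18.2 in ICAM1-negative arrays (4.10 ± 0.43, at least 5.09-fold, adjusted p = 0.00928; 0.0612 without litter 1). Mrc1, the mannose receptor CD206, measured 322.1, 462 and 426.4 in ICAM1-positive arrays against 42.7, 31.4 and 33.7 in ICAM1-negative arrays (3.49 ± 0.25, at least 4.13-fold, adjusted p = 0.00544). Msr1, the class A scavenger receptor, measured 136.6, 113.4 and 102.8 in ICAM1-positive arrays against 31.9, 51.5 and 39.9 in ICAM1-negative arrays, close to the array median even in ICAM1-positive cells (1.53 ± 0.25, at least 1.21-fold, adjusted p = 0.0225). Msr1 lost its call without litter 1 (0.0688), litter 2 (0.0684) or litter 3 (0.0916), and when dim values were set to the median of their array (0.0897). Cd163, the haemoglobin scavenger receptor, failed the filter, at 18.9, 23 and 3.7 in ICAM1-positive and 3.2, 6.4 and 3.3 in ICAM1-negative cells, all below the array median.

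Of 5 genes of the lysosome and of microbial killing 4 rose and 1 fell. Ctss, the lysosomal protease that trims the class II invariant chain, measured 6441.8, 5266 and 7052.7 in ICAM1-positive arrays against 220, 249.1 and 276.4 in ICAM1-negative arrays (4.65 ± 0.16, adjusted p = 0.00406). Mpeg1, the pore-forming perforin-2 of phagocytes, measured 1542.1, 1829.4 and 1487.1 in ICAM1-positive arrays against 37.9, 94.6 and 59 in ICAM1-negative arrays (4.76 ± 0.27, at least 16.7-fold, adjusted p = 0.0042). Cybb, the catalytic subunit of the phagocyte NADPH oxidase, measured 565.5, 704.5 and 687.2 in ICAM1-positive arrays against 103.5, 121.8 and 43.1 in ICAM1-negative arrays (2.99 ± 0.40, adjusted p = 0.0149), and lost its call without litter 1 (0.0617) or litter 2 (0.0655). A dimmer Cybb probe set rose by 1.44 ± 0.29 (at least 1.22-fold, adjusted p = 0.0352), and another did not pass (1.03 ± 0.37, at least 1.02-fold, adjusted p = 0.113). Lgmn, the asparaginyl protease legumain, went the other way, at 1611.9, 1338.2 and 1818.2 in ICAM1-positive arrays against 2729.9, 1786.4 and 2858.4 in ICAM1-negative arrays (-0.61 ± 0.14, adjusted p = 0.0487). Each litter had less Lgmn in its ICAM1-positive sort, but the sorts overlapped. The call was lost without the pairing (adjusted p = 0.119), with no filter (0.0724), with arrays centred on their medians (0.0829), and without litter 1, 2 or 3 (0.202, 0.109 and 0.166).

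Lyz1 depended on the probe set. It encodes a lysozyme with a near-identical paralog, Lyz2, the lysozyme of macrophages. The 2 Lyz1 probe sets that end in _x_at, a suffix for sets whose probes can match other transcripts, rose by 2.06 ± 0.28 and 3.02 ± 0.42. The first had 7095.9, 6269.1 and 6986.3 in ICAM1-positive arrays against 1534.7, 2312.5 and 1203.6 in ICAM1-negative arrays (adjusted p = 0.0149), and missed the threshold without litter 1 (0.0842) or litter 3 (0.0659). The remaining Lyz1 probe set lay below the array median throughout, at 2.9, 18.4 and 2.8 in ICAM1-positive arrays against 21.4, 6.5 and 52.3 in ICAM1-negative arrays (-1.87 ± 1.32, adjusted p = 0.337). Lyz2, on its own probe set, rose by 2.24 ± 0.26 (adjusted p = 0.011). Signal of Lyz1 and Lyz2 cannot be told apart on the _x_at sets.

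Of 5 pan-leukocyte genes 4 rose and 1 did not pass. Ptprc, which encodes the leukocyte antigen CD45, measured 1588.8, 1514.9 and 1999.5 in ICAM1-positive arrays against 479, 387.6 and 195 in ICAM1-negative arrays (2.35 ± 0.40, adjusted p = 0.0248; 0.074 without litter 1 and 0.0914 without litter 2). Cd52, a small glycosylated surface protein of leukocytes, measured 1663.5, 1241.3 and 2254.6 in ICAM1-positive arrays against 124.2, 171.6 and 109.2 in ICAM1-negative arrays (3.66 ± 0.35, adjusted p = 0.00828; 0.0572 without litter 1). The tetraspanin gene Cd53 rose by 1.68 ± 0.20 (adjusted p = 0.0121; 0.0726 without litter 1, 0.0519 without litter 3 and 0.0888 with its probe sets averaged). Laptm5, a lysosomal membrane protein of blood cells, measured 2536.3, 3439.8 and 3514.7 in ICAM1-positive arrays against 219.1, 374.9 and 246.6 in ICAM1-negative arrays on an _x_at probe set (3.52 ± 0.19, adjusted p = 0.00413). Of its other 4 probe sets 1 rose (1.43 ± 0.24) and 3 did not pass, 1 of them with a difference of -1.45 ± 0.82. Coro1a, an actin-binding protein of leukocytes that neurons also make, did not pass, at 690.5, 467.5 and 894.4 in ICAM1-positive arrays against 479.1, 415.8 and 468.8 in ICAM1-negative arrays (0.54 ± 0.21, adjusted p = 0.129; 0.0251 with an intensity trend).

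The MS4A genes and the remaining products all rose. Ms4a7, a membrane protein of mature macrophages, measured 940, 835.2 and 1034.9 in ICAM1-positive arrays against 9.4, 19.1 and 81.8 in ICAM1-negative arrays (5.25 ± 0.67, at least 9.67-fold, adjusted p = 0.0136). Leaving out litter 1 (0.0525) or litter 2 (0.0778) ended the Ms4a7 call. Ms4a6c, of the same family, measured 379.8, 398.6 and 517.3 in ICAM1-positive arrays against 45, 72.1 and 57.3 in ICAM1-negative arrays (2.91 ± 0.21, at least 4.43-fold, adjusted p = 0.00533). Its second probe set lay below the array median on all 6 arrays and gave -1.55 ± 0.85, so with the probe sets averaged the gene missed the threshold (adjusted p = 0.345). Apoe encodes the lipid carrier apolipoprotein E, which glia and epithelial cells also make. It measured 20918, 18313.8 and 22781.7 in ICAM1-positive arrays against 246.7, 371.9 and 524.7 in ICAM1-negative arrays (5.82 ± 0.26, adjusted p = 0.00406). Pf4, the chemokine CXCL4 of platelets and some macrophages, measured 477.6, 577.3 and 435 in ICAM1-positive arrays against 85.8, 74.2 and 61.9 in ICAM1-negative arrays (2.75 ± 0.16, at least 5.11-fold, adjusted p = 0.00435). Aif1, the actin-bundling protein IBA1, measured 125.4, 162.1 and 138.2 in ICAM1-positive arrays against 5.5, 22.2 and 12.8 in ICAM1-negative arrays (3.60 ± 0.39, at least 1.46-fold, adjusted p = 0.00975; 0.0589 without litter 3).

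Over all 62 member probe sets past the filter, 44 rose, 1 fell and 17 did not pass, against 17.8% higher and 19.3% lower of all probe sets. The 44 include the 6 sets that passed the filter only through the ICAM1-positive arrays. Several probe sets passed the filter in 13 genes, of which 9 had every set in the positive direction and 4 had every set higher past the threshold. Such filter-bound sets are among those of C1qb, 1 of the 4, and of Msr1, 1 of the 9. The exceptions in direction were Fcgr2b, Lyz1, Laptm5 and Ms4a6c, each with 1 negative set that did not pass. The probe set shared by Lilrb4a and Lilr4b, related leukocyte receptors, measured 670.3, 852 and 958.9 in ICAM1-positive arrays against 243.9, 205.1 and 72 in ICAM1-negative arrays (2.42 ± 0.53, adjusted p = 0.0416) and cannot be assigned to either gene.

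**Figure D3:**
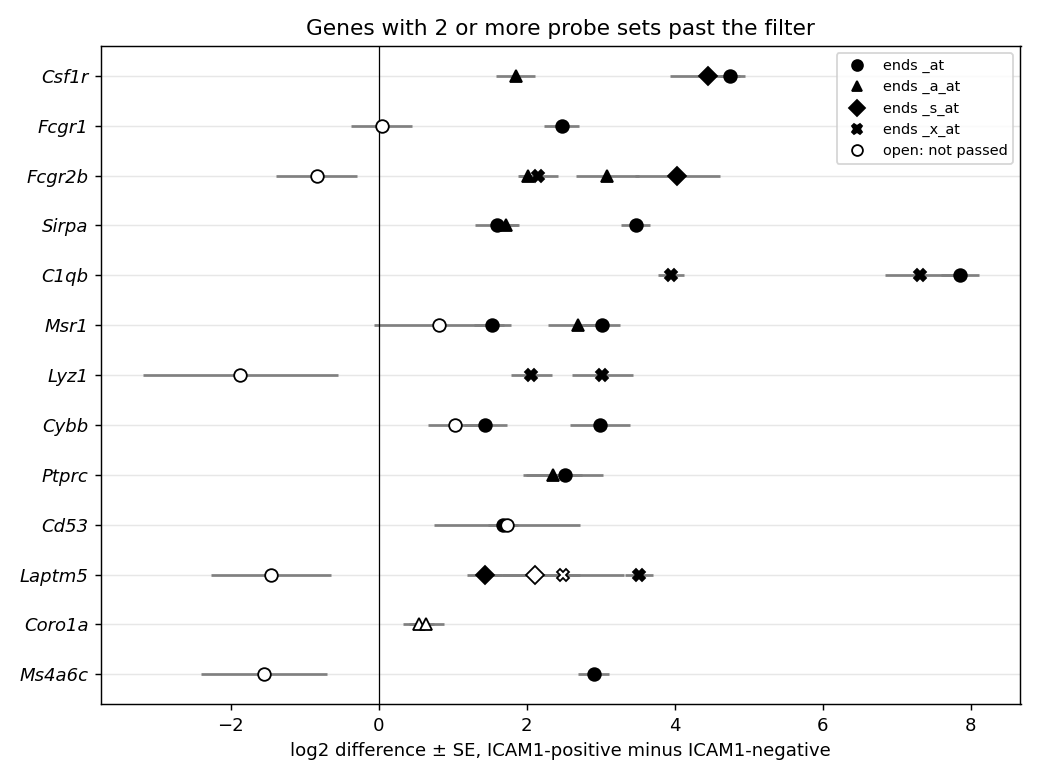
Log2 difference with its SE for each probe set of the 13 genes that had 2 or more past the filter; the marker gives the suffix of the probe set and open markers did not pass. Most sets of a gene lie on the positive side, and Fcgr2b, Lyz1, Laptm5 and Ms4a6c each have 1 open marker at a negative value.

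Related genes outside the set were described by counts, from lists that were chosen with earlier results of these data known. These counts are to be read beside the 21.3% of all genes tested that rose and the 22.2% that fell. Of 26 other monocyte and macrophage genes 19 rose and 1 fell (median 2.46). The brightest were Cd14, the endotoxin co-receptor (3.32 ± 0.16), the transcription factor gene Cebpa (1.52 ± 0.19) and Lyz2. Tlr7, an endosomal RNA sensor, was the 1 lower gene and lay below the array median in every array (-1.36 ± 0.29, adjusted p = 0.0402). Cebpa lost its call without litter 1 (adjusted p = 0.0785) or litter 2 (0.0605), Lyz2 without litter 1 (0.0692) or litter 3 (0.057), and Tlr7 without litter 1 (0.156) or litter 3 (0.15). Without the pairing, Cebpa (0.0691) and Tlr7 (0.112) missed the threshold. Without litter 1 the count of higher genes on this list was 11. Of the 26 genes, 5 lay below the array median on all 6 arrays. Itgam, which encodes the CD11b integrin chain of monocytes and neutrophils, was 1 of them, at 19.3, 4.9 and 39.3 in ICAM1-positive cells against 17.3, 20.5 and 18.9 in ICAM1-negative cells.

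Of 13 genes of resident macrophages and microglia 7 rose and 0 fell (median 1.73), and 3 rose without litter 1 or litter 2. The brightest were Cbr2, a carbonyl reductase (1.42 ± 0.27), Gas6, a ligand of the receptors AXL and MERTK (4.52 ± 0.14), and the transcription factor gene Sall1 (3.88 ± 0.15). Cbr2 lost its call whichever litter was left out (adjusted p = 0.0622 to 0.122). It is on the sustentacular list too, and none of these 3 is made by macrophages alone. Stab1 (2.46 ± 0.28, at least 2.51-fold), P2ry13 (1.73 ± 0.22, at least 1.56-fold), P2ry12 (2.36 ± 0.22) and Gpr34 (1.90 ± 0.36) rose too. Gpr34 lay below the array median on all 6 arrays, and P2ry12 on all 3 ICAM1-negative and 2 ICAM1-positive arrays. Timd4, Folr2, Lyve1, Vsig4 and Cd5l, markers of long-lived resident macrophages, did not pass, and each was below the array median on all 6 arrays. Tmem119 did not pass either (0.98 ± 0.29, adjusted p = 0.0771).

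The partners of these receptors and enzymes moved unevenly. All 3 measured oxidase partners of Cybb rose, Cyba by 2.63 ± 0.18, Ncf1 by 2.26 ± 0.41 and Ncf4 by 1.24 ± 0.28. Ncf1 lost its call without litter 1 (adjusted p = 0.0887) or litter 2 (0.0879), and Ncf4 whichever litter was left out (0.0817 to 0.131). Of 12 genes that signal downstream of Fc receptors and DAP12, 2 rose and 1 fell (median 0.48), against 21.3% and 22.2% of all genes. The kinase gene Syk rose by 1.23 ± 0.22, the lipid phosphatase gene Inpp5d rose by 1.0 ± 0.23, and the phosphatase gene Ptpn6 fell by 0.88 on the log2 scale with an SE of 0.19. Each of these 3 calls was lost whichever litter was left out (adjusted p = 0.0549 to 0.151). The _x_at or _s_at sets decided Ptpn6, which was 0.38 without them. Among the other brightest genes of the list, Plcg2 and Blnk did not pass (-0.38 ± 0.36 and 0.58 ± 0.32).

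Of 4 measured ligands of these receptors, 2 rose. Csf1, the ligand of CSF1R, measured 796.8, 871.6 and 1113.4 in ICAM1-positive arrays against 65.5, 87.1 and 43 in ICAM1-negative arrays (3.87 ± 0.34, at least 9.51-fold, adjusted p = 0.00705). Cx3cl1, the ligand of CX3CR1, measured 3629.6, 3230 and 3573.4 in ICAM1-positive arrays against 103.6, 153.5 and 118.5 in ICAM1-negative arrays (4.81 ± 0.21, adjusted p = 0.00406). So these receptors and ligands were both brighter in the ICAM1-positive sort. Cd47, the ligand of SIRPA, was bright in either sort and did not pass (0.20 ± 0.15), and Il34, the other ligand of CSF1R, was below the array median on all arrays (0.04 ± 0.30).

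General leukocyte genes rose in 10 of 14 (median 2.38), among the brightest the actin-bundling gene Lcp1 (2.32 ± 0.13) and Alox5ap, which serves leukotriene synthesis (1.84 ± 0.43). Plek, a platelet and leukocyte protein kinase C substrate, did not pass (0.73 ± 0.23). Alox5ap lost its call whichever litter was left out (adjusted p = 0.0741 to 0.146), and the count was 2 without litter 1 and 5 without litter 2. Class II antigen presentation genes rose in 7 of 7 (median 4.66), led in brightness by H2-Aa (5.83 ± 0.20), Cd74 (5.23 ± 0.30) and H2-Ab1 (4.66 ± 0.13). The 7 include Cd86, which is also on the list of other monocyte and macrophage genes. Without the pairing 6 rose, as Ciita, whose sorts overlapped, missed the threshold (adjusted p = 0.0916). Other lysosomal genes rose in 8 of 11 (median 1.16), and in 4 whichever litter was left out. Of their brightest, Lamp2, a lysosomal membrane protein, rose by 0.76 ± 0.13 but lost the call whichever litter was left out (adjusted p = 0.093 to 0.126), and Psap and Lamp1 did not pass (-0.03 ± 0.12 and 0.17 ± 0.17). Lipid handling genes rose in 5 of 8 (median 1.45), and in 3 whichever litter was left out. Abcg1, a cholesterol exporter, rose by 0.78 ± 0.14, again lost whichever litter was left out (adjusted p = 0.0946 to 0.136) and without the pairing (0.0619), Plin2, a lipid droplet protein, rose by 2.13 ± 0.19, and the fatty acid binding gene Fabp5 did not pass (-0.40 ± 0.17).

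**Figure D4:**
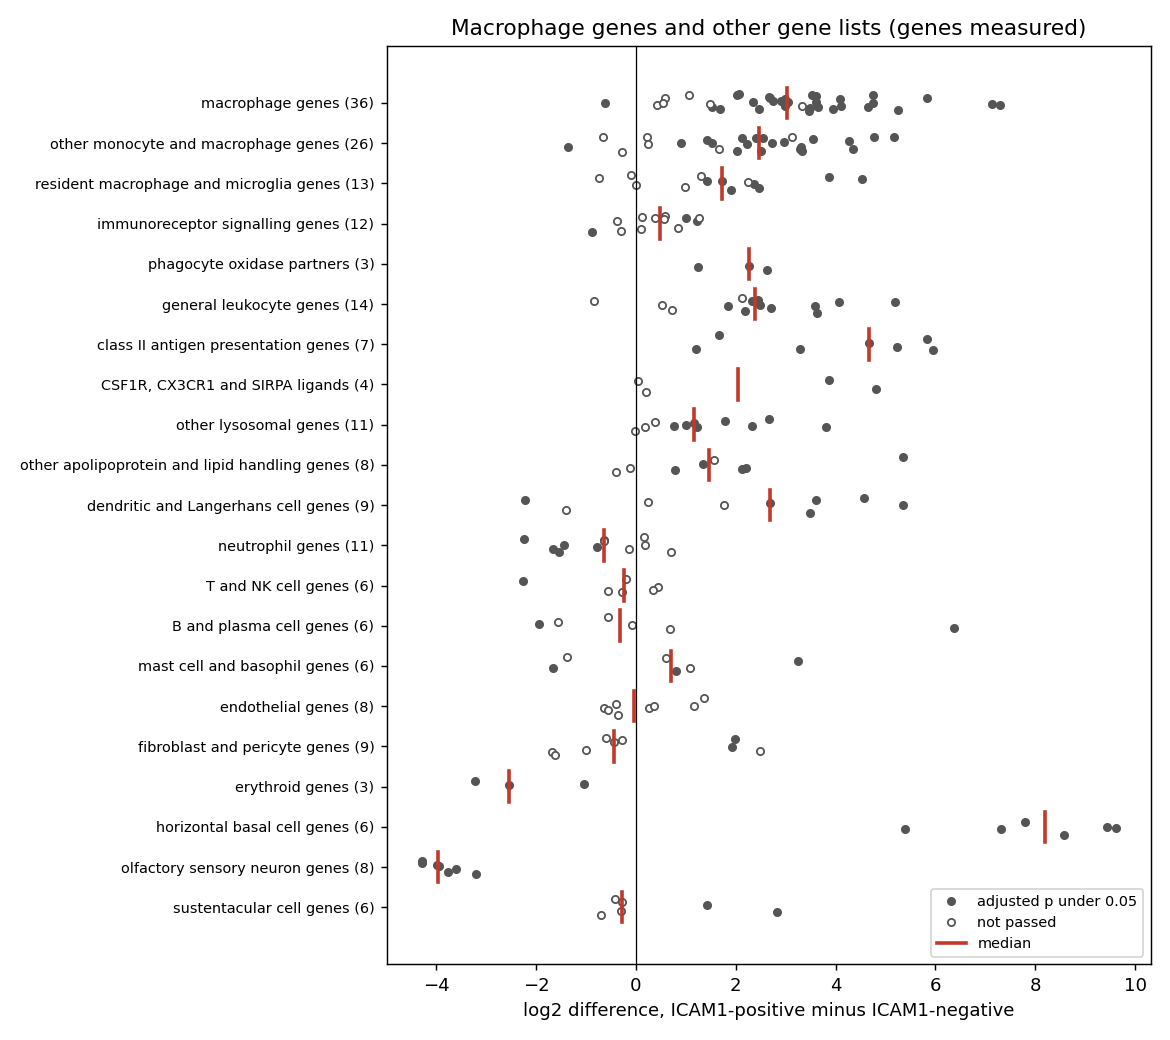
Log2 difference (ICAM1-positive minus ICAM1-negative) of each measured gene in the macrophage set and in 20 other lists, with the number measured in brackets; filled points had an adjusted p under 0.05 and red bars are medians. Medians run from 8.19 for horizontal basal cell genes to -3.97 for olfactory sensory neuron genes, with the macrophage genes at 3.03. The basal cell median includes Krt15, which passed the filter only through the ICAM1-positive arrays.

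Markers of other cells that carry some of the same genes were read beside the set. Of 9 dendritic and Langerhans cell genes 5 rose and 1 fell (median 2.69), and their summed intensity was 1672.5 to 2377.8 in ICAM1-positive arrays and 633.4 to 1009.7 in ICAM1-negative arrays. Itgax, which encodes CD11c, rose by 3.61 ± 0.26 (at least 8.52-fold) and Cd209a by 2.69 ± 0.38 (at least 2.67-fold), while Zbtb46, a transcription factor gene of classical dendritic cells, fell by 2.22 on the log2 scale with an SE of 0.29. Zbtb46 made up most of the ICAM1-negative sum, at 710.5, 458.2 and 734.3. Ccr7 rose as well (4.58 ± 0.46, at least 2.99-fold). Clec10a (at least 2.69-fold) and Flt3 were also higher, but passed the filter only through the ICAM1-positive arrays. The remaining 3 genes did not pass. Cd209a lost its call without litter 1 (adjusted p = 0.0876) or litter 3 (0.0662), and Zbtb46 without litter 1 (0.0651) or litter 3 (0.0775). The share of dendritic cells in the differences of the macrophage genes was not tested.

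Of 11 neutrophil genes 0 rose and 5 fell (median -0.64), with a summed intensity of 2738.3 to 4698.7 in ICAM1-positive and 5991.3 to 11889.4 in ICAM1-negative arrays. Among the 5, Cxcr2 passed the filter only through the ICAM1-negative arrays. Without the pairing 2 fell, and without litter 1, 2 or 3 the count was 1, 0 and 2. The calprotectin gene S100a8 and the granule gene Ngp fell (-1.55 ± 0.35 and -1.45 ± 0.26), each not without litter 1 (adjusted p = 0.142 and 0.114) or litter 2 (0.162 and 0.116), and Ltf did not pass (-0.63 ± 0.21). In T and NK cells 0 of 6 genes rose and 1, Gzma, fell (-2.27 ± 0.23, at least 1.86-fold lower), though not without litter 1 (adjusted p = 0.0532) or litter 2 (0.0597). Zap70 and Cd8a did not pass (-0.29 ± 0.52 and -0.56 ± 0.90), and the summed intensity was 356.3 to 845.7 in ICAM1-positive against 717.9 to 985.2 in ICAM1-negative arrays. Among 6 B and plasma cell genes, Sdc1, which encodes syndecan-1 and is also an epithelial gene, rose by 6.38 ± 0.18 and reached 7568.1 to 9573.7 in ICAM1-positive arrays and 84.3 to 140.1 in ICAM1-negative arrays. The list's summed intensity was 7814.8 to 9788.3 in ICAM1-positive and 446.6 to 607.2 in ICAM1-negative arrays. Ms4a1, which encodes CD20, fell (-1.94 ± 0.13, at least 1.41-fold lower), and Cd79b did not pass (-0.56 ± 0.15).

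In the mast cell and basophil list 2 of 6 genes rose and 1 fell, and the summed intensity was 386.4 to 522.5 in ICAM1-positive against 776.1 to 1191.1 in ICAM1-negative arrays. Kit, also a gene of olfactory progenitors, fell (-1.65 ± 0.17; adjusted p = 0.0617 without litter 1 and 0.0581 without litter 2). Mcpt8 and Cpa3, which rose by 3.25 ± 0.55 and 0.81 ± 0.16, and Tpsab1, which did not pass (0.60 ± 0.49), were below the array median on every array. Mcpt8 passed the filter only through the ICAM1-positive arrays, so it could appear only as higher and its difference has no exact size. Without litter 2 or litter 3, Mcpt8 (adjusted p = 0.082 and 0.0799) and Cpa3 (0.139 and 0.135) lost their calls, Cpa3 also without litter 1 (0.0904) and without the pairing (0.268).

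Of 8 endothelial genes 0 passed in either direction, with a summed intensity of 423.1 to 492.4 in ICAM1-positive and 442.1 to 468.8 in ICAM1-negative arrays. Their brightest were Egfl7, Kdr and Tek (-0.39 ± 0.14, 0.27 ± 0.23 and -0.63 ± 0.22), with a bound of 1.15-fold for Egfl7, and 6 of the 8 lay below the array median on all 6 arrays. Fibroblast and pericyte genes rose in 2 of 9 and fell in 0, against 21.3% and 22.2% of all genes. Dcn rose by 1.93 ± 0.18 and Fbln1 by 1.99 ± 0.20, Dcn not without litter 3 (adjusted p = 0.0517) and Fbln1 not without litter 2 (0.0598). Rgs5 and Col1a2 did not pass (-0.44 ± 0.21 and -1.68 ± 1.08). All 3 measured erythroid genes, Alas2, Slc4a1 and Klf1, fell (-2.54 ± 0.28, -3.22 ± 0.34 and -1.05 ± 0.21), Slc4a1 at least 3.36-fold and Klf1 at least 1.10-fold lower. They lost their calls without litter 1 (adjusted p = 0.0569, 0.0546 and 0.128), Klf1 also without litter 2 (0.0934), and Alas2 and Klf1 also without litter 3 (0.0513 and 0.0877).

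Epithelial markers moved in the same arrays. Of the horizontal basal cell genes, Krt5, Trp63 and Krt14 rose by 7.32 ± 0.25, 7.80 ± 0.51 and 8.58 ± 0.45, and the list's summed intensity was 74922.6 to 79081.1 in ICAM1-positive against 249.7 to 677.8 in ICAM1-negative arrays. The neuronal genes Adcy3, Gnal and Cnga2 fell (-3.19 ± 0.20, -3.76 ± 0.20 and -3.95 ± 0.28), with a summed intensity of 3783.3 to 6436.3 in ICAM1-positive against 64361.5 to 77811.1 in ICAM1-negative arrays. Of 6 sustentacular cell genes 2 rose, Cbr2 and Ermn (2.83 ± 0.15), and Cyp2g1 and Sec14l3 did not pass (-0.29 ± 0.26 and -0.28 ± 0.20). Summed intensity of that list was 39931 to 55327.7 in ICAM1-positive and 25175.9 to 46100.3 in ICAM1-negative arrays. Cbr2 was the brightest gene of this sum in each ICAM1-positive array, at 27391.3, 22351.2 and 25671.3. In the ICAM1-negative arrays it measured 6893.6, 8664.6 and 13851.8. The part of epithelial cells in the differences of genes that they also make, such as Apoe, Sirpa and Lgmn, was not tested.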

How the data were processed

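RNA of 3 ICAM1-positive and 3 ICAM1-negative sorts was measured on Affymetrix mouse arrays, 1 array per sort and litter. The authors deposited linear intensities. GCRMA is named in the submitters' processing notes and in the series text, yet the values had a mean of 500 on every array after trimming 2% from each end, and unequal medians; which program and background correction gave them is not stated there. After a log2 transform and removal of 64 control probe sets, those above log2 4 on at least 3 arrays were tested (38694 of 45101). Symbols came from the platform table (34945 probe sets with 1 gene, 932 with several, 9160 with none listed); all 37 genes kept their symbol in RefSeq.

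The fit used lmFit and eBayes of limma 3.58.1 (R 4.3.3), with litter as a block. The series text states that a replicate number is a litter; same-numbered arrays' deviations correlated at 0.13, 0.20 and 0.08. The fit was tested on simulated data. Precision is limited by the number of arrays. Groups follow titles and population labels. All members were named; of other lists, the 3 brightest genes, plus those that were few to pass or to oppose the rest. Itgam, Il34, Tmem119 and the 5 resident markers below the median were named after their values were seen. So were Stab1, P2ry13, P2ry12, Gpr34, Ccr7, Clec10a, Flt3, Cxcr2, Krt15, Cd86 and Ciita. Members, lists and motifs were chosen with earlier results of these data known.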

Additional observations from a re-analysis of the deposited data

How the results depend on the processing

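Alternatives were no pairing, each litter left out, no filter or a filter at log2 above 6, quantile normalization, median centring, low intensities raised to the array median, a pseudocount of 16, averaged probe sets, an intensity trend, and, chosen after seeing the data, no probe sets ending _x_at or _s_at. Over all of these the count of macrophage genes higher lay between 19 and 33. Leaving out a litter gave 19 to 25 higher genes, 24 to 32 higher probe sets and 4867 to 6123 probe sets called in all. With fewer arrays the fit has fewer degrees of freedom. The count of lower genes was 0 without any 1 litter, without the replicate block (litter pairing), without a filter and with median centring, and 1 otherwise, since Lgmn alone was ever lower. Without the block 30 macrophage genes were higher, Spi1 gained its call and Lgmn lost it; no other macrophage gene changed its call without the block. Genes that had not passed gained a call under other settings: Spi1 and Fcer1g with the stricter filter, quantile normalization, median centring, the pseudocount, averaging and the trend, Fcgr3 with the pseudocount and the trend, Coro1a with the trend, and Spi1, Fcgr3 and Coro1a with low intensities raised. The median log2 difference, 3.03 in the paired fit, was 2.35 with low intensities raised, 2.66 with the pseudocount and 2.72 with averaged probe sets, and raising removes spread, so added calls there carry little weight. Leaving out _x_at and _s_at sets turned Laptm5 to -1.45, Lyz1 to -1.87, Ptpn6 to 0.38 and Cd8a to 0.21, none past the threshold, with 26 higher genes. Averaging turned Cd8a to 0.49. Over the fits without a litter, genes that had not passed changed sign: Trem2 ran from -0.11 to 0.98, Cyp2g1 from -0.49 to 0.0093, Cd8a from -1.74 to 0.10, Zap70 from -0.82 to 0.33 and Tpsab1 from -0.015 to 0.96, and Cd8a passed at its lowest; the cause was not tested. Trem2, Siglec1 and other genes below the array median on all 6 arrays have no value with low intensities raised. Intensities near or below the array median carry no detection call and limit what can be said of them.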
